A study of Mus musculus with 12 samples.

Results

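The genotype by Pg interaction asks of every gene whether its response to Pg differed between macrophages of 2 genotypes. It is the log2 response to Pg in Itga9-Lyz2-cKO cells (cKO) minus the log2 response in Itga9-Lyz2-cHet cells (cHet). All genes that passed a filter on low counts were taken, 13800 of the 54532 in the deposited table. The 4 groups were cKO with Pg, cKO control, cHet with Pg and cHet control, each with 3 libraries of poly-A RNA, 12 in all. Every culture was made from bone marrow of male mice aged 8 weeks, grown with M-CSF at 50 ng/mL, the factor under which marrow precursors become macrophages. Pg is the name the labels give to the stimulus, which was applied for 2 hours at a multiplicity of infection given as 1:20, and control cultures were labelled only as controls. The genotype names point to Itga9, which encodes the alpha chain of the adhesion receptor integrin alpha9beta1, and to the Lyz2 locus, a usual driver of Cre recombinase in macrophages and neutrophils. The labels do not spell the alleles out. Nothing in them ties a library to its own mouse or dish, so the p-values speak of the spread among libraries, and that spread may be only technical.

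An inducible gene has a level at rest and a level after the stimulus, and its fold response is the ratio of both. When a bacterium meets a macrophage, Toll-like receptors switch on MAP kinases and NF-kB within minutes. Immediate early genes, cytokines and their own inhibitors then rise together. The inhibitors include dual-specificity phosphatases, which switch MAP kinases off, and tristetraprolin, which marks cytokine mRNA for decay. A second wave of genes depends on interferon signalling. A larger fold response on a log scale can belong to a lower resting level, a higher stimulated level, or both, and the comparisons here separate these.

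Itga9, the targeted gene (chr9:118606690-118901003, plus strand, mm10), had 13.6, 11.6 and 7.84 CPM (counts scaled to the same library total) in cKO Pg libraries and 11.5, 5.98 and 6.42 CPM in cKO control libraries. It had 19.4, 34.0 and 33.4 CPM in cHet Pg libraries and 32.3, 17.9 and 18.9 CPM in cHet control libraries. Itga9 was below every cHet library in every cKO library of the same treatment, and reads remained in all cKO libraries. Its genotype difference was -1.39 ± 0.36 on the log2 scale under Pg (adjusted p 0.125) and -1.53 ± 0.37 at rest (adjusted p 0.0497), where ± is the standard error here and below and p comes from edgeR's quasi-likelihood test with Benjamini-Hochberg adjustment. Its interaction was 0.14 ± 0.52 (adjusted p 0.959). Lyz2, the macrophage lysozyme gene, had 8746 to 10978 CPM over the cKO libraries and 17628 to 22004 CPM over the cHet libraries. It was lower in cKO, with a log2 difference of -0.99 ± 0.09 in controls (adjusted p 6.39e-06) and an interaction of 0.04 ± 0.13 (adjusted p 0.944). The genotypes therefore differed in Lyz2 as well as in Itga9, and no result below can be assigned to Itga9 alone.

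Library totals lay between 14527674 and 16793803 counts. All 13 markers of macrophages passed the count filter. Lyz2 was the 1 marker called between genotypes, and the other 12 summed to 12293 to 16098 CPM in cKO and to 12505 to 15634 CPM in cHet libraries, which overlap. Stromal cell markers stood apart by genotype: the 13 of 16 that passed the filter summed to 8.54 to 13.0 CPM over the 6 cKO libraries and to 58.2 to 72.8 CPM over the 6 cHet libraries, and none of the 13 was called for the interaction by edgeR or DESeq2 among the 13800 genes, with 1 at an unadjusted p under 0.05. Without a low-count filter edgeR called 1 of the 13. In bulk RNA, fewer cells of a type and less RNA per cell cannot be told apart. Libraries of 1 group also differed among themselves along an axis that took 59.2% of the variance of the deviations from group means. It ran with Itgax, the integrin alpha chain of CD11c, at 103, 121 and 48.0 CPM in cKO Pg, 125, 42.4 and 45.1 CPM in cKO control, 59.3, 137 and 132 CPM in cHet Pg, and 115, 37.0 and 36.2 CPM in cHet control. Each genotype thus held 2 libraries of high Itgax under Pg and 1 at rest. The 12 dendritic cell markers, Itgax among them, summed to 86.3 to 168 CPM in the Pg libraries and to 62.6 to 147 CPM in the control libraries. Itgax made up most of the sum in every library, 125 of 147 CPM in cKO control library 1. These sums therefore do not show how the other markers moved. Results are therefore also given from a fit with Itgax as a covariate, which was added after this axis had been seen.

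The response to Pg differed between genotypes in 99 of the 13800 genes (0.717%, adjusted p under 0.05). The fold change with Pg over control was higher in cKO than in cHet for 63 genes (0.457%), named positive here, and lower for 36 (0.261%), named negative. At an unadjusted p under 0.05 there were 1742 genes (12.6%). Positive interactions ran from 0.40 to 1.91 on the log2 scale with a median of 0.62, and negative ones from -2.50 to -0.39 with a median of -0.63. Only 19 of the 99 reached a log2 size of 1. For scale, Pg changed 4687 genes in cKO (34%) and 4980 genes in cHet (36.1%), and the genotypes differed in 711 genes at rest (5.15%) and in 255 under Pg (1.85%). Single libraries weighed on the count. The count was 44, 39 and 210 without cKO Pg library 1, 2 and 3, 25 without cKO control library 3, 53 without cHet Pg library 2, and 61 and 40 without cHet control library 2 and 3. The sign of the interaction was kept by all 99 genes in all 12 of these fits, and 24 genes were called in each of them. DESeq2 called 259 genes (1.88%) and the fit with the Itgax covariate 715 (5.18%), and both included all 99.

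Whether the resting or the stimulated level carried a called interaction was asked by comparing the sizes of the 2 genotype differences. The interaction is the genotype difference under Pg minus that at rest. If the average of both differences also passes the threshold and has the opposite sign to the interaction, the difference at rest is the larger in size, and with the same sign the difference under Pg is the larger. By this rule the resting level carried 31 of the 99 genes and the stimulated level 9. The other 59 were not resolved, because the average of their 2 differences did not pass. That average passed in 4.91% of all tested genes, with the lower level in cKO in 2.78%. Of the 31 resting genes, 25 were lower at rest in cKO and 6 were higher. Of the 9 stimulated genes, 8 were lower under Pg in cKO and 1 was higher, where 1.2% and 0.652% of all tested genes were. Both classes were thus mostly lower in cKO. By the rule the same 25 of the 31 had a positive interaction and the same 8 of the 9 a negative one, so these signs add nothing further. Without 1 library the resting class held 7 to 33 genes. It held 17 and 14 without cKO Pg library 1 and 2, 7 without cKO control library 3, 17 and 16 without cHet Pg library 2 and 3, and 13 without cHet control library 3. The stimulated class held 1 to 13 genes. It had 2, 1 and 13 without cKO Pg library 1, 2 and 3, 5 and 3 without cKO control library 2 and 3, 3 without cHet Pg library 2, and 3 and 2 without cHet control library 2 and 3.

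The genotype difference itself gave a similar order. Of the 99 genes, 67 passed the threshold for genotype at rest only, 17 under Pg only, 7 in both and 8 in neither. Genotypes did not overlap at rest in any library for 59 genes that were lower in cKO and for 27 that were higher, where 23.5% of all tested genes did not overlap at rest. Under Pg 37 of the 99 genes (37.4%) overlapped between genotypes and the rest did not, where only 17.6% of all tested genes did not overlap. The called genes were thus apart under Pg more often than all tested genes. These are values of the same libraries as the interaction and are tied to it by construction. In 79 genes the estimated difference had opposite signs at rest and under Pg. Only 7 of the 99 passed the threshold for genotype in both, so the signs alone do not show a crossing.

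Whether the response was the larger one in cKO or in cHet was asked in the same way, from the average response to Pg over both genotypes. The response was larger in size in cKO for 48 of the 99 genes and in cHet for 29, and 22 were not resolved, where the average response passed in 47.2% of all tested genes. Without cKO Pg library 3 the counts were 81 and 79, and without cKO control library 3 they were 13 and 9. The other fits without a library gave 22 to 51 genes larger in cKO and 8 to 55 larger in cHet. Both genotypes rose with Pg in 25 genes, 21 of them positive, and both fell in 12. Both responses passed the threshold with opposite signs in 11 genes, 27 passed in cKO only and 24 in cHet only. A positive interaction was therefore a larger fold rise in 21 genes, and in others a smaller fall or a response with the other sign.

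**Figure D1:**
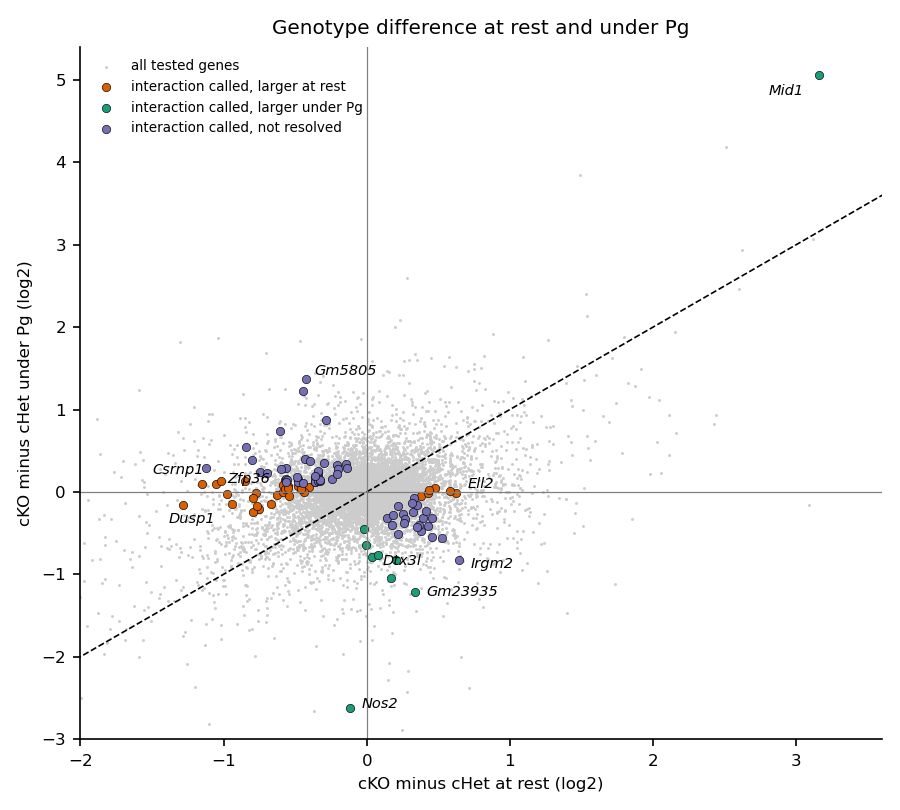
Each point is a tested gene, with the log2 difference of cKO minus cHet at rest on the x axis and under Pg on the y axis; genes on the dashed diagonal have no interaction. Called genes are coloured by the level that carried them, and 31 lie near the horizontal zero line to either side, 25 of them on the left, while Nos2 and Dtx3l lie near the vertical zero line and below; uncalled genes beyond the axes are not drawn.

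Among the 25 genes that were lower at rest in cKO, the difference at rest ran from -1.29 to -0.41 with a median of -0.67 on the log2 scale. Their difference under Pg ran from -0.24 to 0.14 with a median of -0.0036, and 19 of the 25 overlapped there. For the 6 genes that were higher at rest in cKO, the difference at rest was 0.38 to 0.62 and the difference under Pg -0.05 to 0.05. All 31 had no overlap between genotypes at rest, where 23.5% of all tested genes had none. Under Pg 24 of the 31 overlapped, as most tested genes did, since only 17.6% had no overlap there. The class was picked for a larger difference at rest, so being closer under Pg follows from the rule. These genes were apart at rest and close together or mixed after 2 hours with Pg.

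The gene with the smallest p was Dusp1 (chr17:26505590-26508519, minus strand, mm10), which encodes a phosphatase that inactivates p38, JNK and ERK. It had 1094, 1227 and 1276 CPM in cKO Pg libraries and 104, 91.7 and 83.5 CPM in cKO control libraries. It had 1385, 1323 and 1320 CPM in cHet Pg libraries and 245, 217 and 217 CPM in cHet control libraries. Every cKO control library was far below the lowest cHet control library, while under Pg the highest cKO library came close to the lowest cHet library. On the log2 scale Pg raised Dusp1 by 3.69 ± 0.09 in cKO and by 2.57 ± 0.08 in cHet, an interaction of 1.12 ± 0.11 (adjusted p 0.00028). The genotype difference was -0.16 ± 0.08 under Pg (adjusted p 0.428) and -1.29 ± 0.08 at rest (adjusted p 4.94e-08).

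Of the 16 tested phosphatase, Sprouty and Spred genes, Dusp1, Dusp5 and Dusp8 were called, all positive, where 0.457% of all tested genes were, and 13 were not. The median interaction of the 16 was 0.14, against -0.003 over all tested genes. Dusp5, whose nuclear product acts on ERK, had 313, 314 and 246 CPM in cKO Pg, 18.9, 19.3 and 17.8 CPM in cKO control, 214, 269 and 254 CPM in cHet Pg, and 31.7, 32.2 and 30.0 CPM in cHet control libraries. Its groups overlapped under Pg and not at rest, and its interaction was 0.99 ± 0.14 (adjusted p 0.0046). Dusp8, which encodes a phosphatase of JNK and p38, was low throughout. It had 8.47, 9.03 and 7.84 CPM in cKO Pg, 3.09, 3.55 and 2.92 CPM in cKO control, 5.62, 5.70 and 9.38 CPM in cHet Pg, and 5.84, 8.97 and 6.04 CPM in cHet control libraries. Pg raised Dusp8 by 1.41 ± 0.22 in cKO on the log2 scale, against -0.01 ± 0.21 in cHet (interaction 1.41 ± 0.30, adjusted p 0.0378), and 9 of the 12 fits that left out a library lost this call. Neither Dusp5 nor Dusp8 was resolved by level. Dusp6, a cytoplasmic ERK phosphatase, was at -0.26 ± 0.29, and Dusp2 was at 0.31 ± 0.22, both without a call.

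The promoters of the phosphatase genes are shown because their letters hold 2 elements known to read these kinases. The cyclic AMP response element (CRE, here TGACGTCA on either strand) is bound by CREB and ATF factors, and the CArG box by serum response factor. Windows were the 250 bases before the RefSeq start (GRCm38.p6, the assembly behind mm10), written 5′ to 3′ along the gene, and were found for 43 of the 63 positive genes, 29 of the 36 negative genes and 9842 of all tested genes. The sequences of Dusp1 (chr17:26508473-26508722, minus strand), Dusp8 (chr7:142095285-142095534, minus strand) and Ppp1r15a (chr7:45526269-45526518, minus strand) follow, with the CRE in capitals, and that of Dusp5 (chr19:53528895-53529144, plus strand) with 2 adjoining CArG boxes in capitals.
Dusp1: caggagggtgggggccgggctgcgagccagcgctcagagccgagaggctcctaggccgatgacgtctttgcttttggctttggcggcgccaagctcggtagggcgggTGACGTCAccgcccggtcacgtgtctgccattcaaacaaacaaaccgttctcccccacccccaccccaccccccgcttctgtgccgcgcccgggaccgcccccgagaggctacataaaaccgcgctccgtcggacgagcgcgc
Dusp8: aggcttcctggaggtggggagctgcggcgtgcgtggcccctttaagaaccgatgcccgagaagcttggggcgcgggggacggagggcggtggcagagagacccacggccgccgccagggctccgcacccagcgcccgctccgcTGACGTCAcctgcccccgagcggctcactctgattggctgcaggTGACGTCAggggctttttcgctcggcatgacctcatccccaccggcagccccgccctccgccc
Ppp1r15a: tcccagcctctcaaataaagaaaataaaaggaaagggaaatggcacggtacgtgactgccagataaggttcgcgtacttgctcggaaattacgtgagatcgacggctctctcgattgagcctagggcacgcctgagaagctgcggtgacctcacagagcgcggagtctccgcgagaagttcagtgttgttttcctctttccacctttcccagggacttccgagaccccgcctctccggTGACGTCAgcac
Dusp5: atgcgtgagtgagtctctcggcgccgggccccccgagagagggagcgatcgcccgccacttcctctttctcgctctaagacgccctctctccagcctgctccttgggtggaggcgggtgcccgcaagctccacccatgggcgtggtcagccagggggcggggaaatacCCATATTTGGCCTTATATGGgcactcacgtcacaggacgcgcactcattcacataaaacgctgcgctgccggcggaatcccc
The Dusp8 window lies inside the deposited gene span, 559 bases from its 5′ end. The CRE of Dusp1 lies at bases -143 to -136 from the start, and that of Ppp1r15a at -12 to -5. Dusp8 has CREs at -107 to -100 and at -63 to -56, and the boxes of Dusp5 span -82 to -73 and -72 to -63.

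The CRE was in 4 of the 43 positive windows (9.3%), those of Dusp1, Dusp8, Ppp1r15a and Flcn, in 1 of the 29 negative windows (3.45%) and in 2.74% of the windows of all tested genes. The CArG box was in 4.65% of the positive windows, those of Dusp5 and Zfp36, in none of the negative ones and in 1.09% of all. The Zfp36 window lies inside the deposited gene span, 1025 bases from its 5′ end. A kappaB site was in 18.6% of the positive, 17.2% of the negative and 8.81% of all windows. These are matches of letters and not measured binding, and the shares were not tested.

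Of the 26 lists, immediate early genes had the largest share of 1 sign. Of its 25 members, which encode AP-1, EGR, NR4A and KLF transcription factors and the IER proteins, 23 had an interaction above 0 (92%), against 49.4% of all tested genes. The median was 0.68, against -0.003 over all genes. By level, the median genotype difference of the members was 0.14 under Pg and -0.59 at rest, and 1 member was called lower under Pg in cKO and 8 at rest, where 1.2% and 3.02% of all tested genes were. Only Junb, Ier3 and Csrnp1 were called for the interaction, and 22 members were not. The summed level of the list was 5496 to 6338 CPM in cKO Pg, 2431 to 2592 CPM in cKO control, 5096 to 6029 CPM in cHet Pg and 3311 to 3503 CPM in cHet control libraries. The summed levels thus overlapped under Pg and were apart at rest. The sign held for 23 or 24 members when any 1 library was left out, with medians of 0.59 to 0.81. DESeq2 called 11 members and the fit with the Itgax covariate 10, all positive.

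Junb, an AP-1 subunit, had 1267, 1217 and 1230 CPM in cKO Pg, 477, 507 and 466 CPM in cKO control, 1252, 1234 and 1311 CPM in cHet Pg, and 728, 770 and 739 CPM in cHet control libraries. The genotypes overlapped under Pg and were far apart at rest, and the interaction was 0.60 ± 0.08 (adjusted p 0.00338). Ier3, a survival factor of stimulated cells, had 312, 313 and 342 CPM in cKO Pg, 65.0, 88.5 and 74.8 CPM in cKO control, 321, 331 and 327 CPM in cHet Pg, and 127, 157 and 164 CPM in cHet control libraries. Its interaction was 0.96 ± 0.15 (adjusted p 0.0095), and 0.0507 without cKO control library 3. Csrnp1, a nuclear protein gene that overlaps the annotated Cx3cr1, had means of 195 ± 20.1 CPM in cKO Pg, 27.8 ± 3.88 CPM in cKO control, 183 ± 33.0 CPM in cHet Pg and 61.6 ± 9.59 CPM in cHet control libraries (SD, n = 3 each). Its interaction of 1.24 ± 0.23 (adjusted p 0.0376) was lost in 8 of the 12 fits that left out a library, with adjusted p of 0.0205 to 0.121 over all 12.

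Some members of the list without a call had values as large with larger errors. The AP-1 gene Fosb was at 1.69 ± 0.49, the orphan receptor gene Nr4a1 at 1.42 ± 0.33, and the zinc finger genes Egr1 and Egr3 at 1.40 ± 0.44 and 1.33 ± 0.28. Egr1 shows the spread behind such errors. It had 103, 83.0 and 59.5 CPM in cKO Pg, 22.6, 28.6 and 19.7 CPM in cKO control, 40.0, 81.0 and 78.7 CPM in cHet Pg, and 60.2, 42.5 and 48.9 CPM in cHet control libraries. Its cHet Pg libraries differed widely, and the lowest of them was below the lowest cHet control library. Fosl2 and Klf2 were the 2 members below 0, at -0.07 ± 0.13 and -0.01 ± 0.13.

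**Figure D2:**
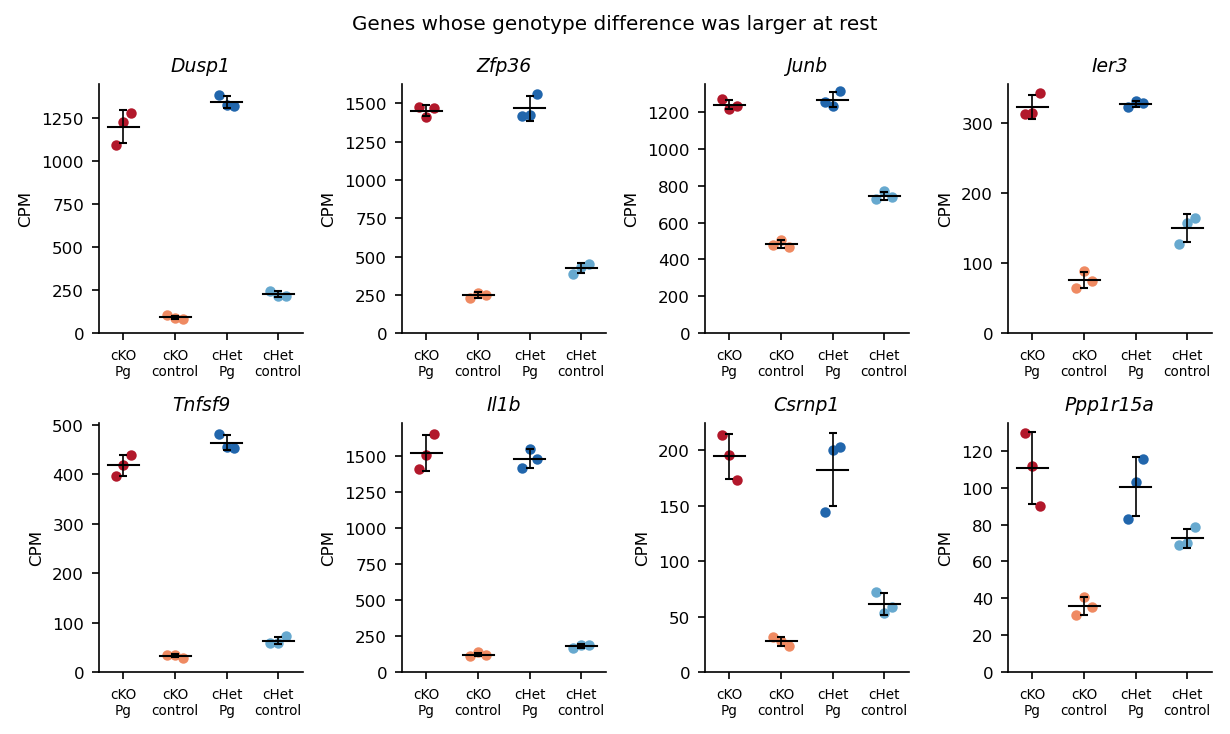
CPM of 8 genes whose genotype difference was larger at rest, in each of the 12 libraries, with group means and SD as lines (n = 3 each); the y axes are linear and start at 0. In each panel the cKO control libraries lie below the cHet control libraries, while the Pg libraries of both genotypes are close or overlap.

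Zfp36 and Tnfaip3, 2 inhibitors of inflammation, were among the resting genes. Zfp36, which encodes tristetraprolin, had 1476, 1409 and 1469 CPM in cKO Pg, 228, 266 and 252 CPM in cKO control, 1418, 1421 and 1562 CPM in cHet Pg, and 387, 433 and 453 CPM in cHet control libraries. Both genotypes reached the same range under Pg, and the interaction was 0.76 ± 0.10 (adjusted p 0.00338). Tnfaip3, which encodes A20, a ubiquitin-editing inhibitor of NF-kB, had 2358, 2593 and 2765 CPM in cKO Pg, 420, 412 and 396 CPM in cKO control, 2984, 2832 and 2745 CPM in cHet Pg, and 675, 618 and 661 CPM in cHet control libraries. Its interaction was 0.52 ± 0.09 (adjusted p 0.0126), and the call was lost without cKO Pg library 2, cKO control library 3 or cHet control library 3, with a highest adjusted p of 0.0542.

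The lists around these genes were less uniform. Of 10 mRNA decay factors, Zfp36 and Zc3h12c were called, both positive, where 0.457% of all tested genes were, and the median was 0.0017. Zc3h12c, a relative of Regnase-1, was at 0.40 ± 0.08 (adjusted p 0.0238), a call lost in 7 of the 12 fits that left out a library. Of 20 NF-kB genes only Tnfaip3 was called, 10 were above 0 and the median was 0.0035. Nfkbia, the inhibitor IkB-alpha, was at 0.25 ± 0.08 (adjusted p 0.188), and Nfkb1, the p105 subunit, at -0.35 ± 0.12 (adjusted p 0.206). Ppp1r15a, which encodes GADD34, the phosphatase subunit that restores translation after stress, was in no list. It had 130, 112 and 90.3 CPM in cKO Pg, 31.1, 40.9 and 35.3 CPM in cKO control, 83.2, 103 and 115 CPM in cHet Pg, and 69.1, 70.2 and 78.5 CPM in cHet control libraries. Its interaction was 1.16 ± 0.21 (adjusted p 0.0376), lost in 8 of the 12 fits without a library.

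Among 22 cytokines, 2 were called, both positive (0.457% over all tested genes), 15 were above 0 (68.2%) and the median was 0.44. Tnfsf9, the 4-1BB ligand of T cell costimulation, had 397, 419 and 439 CPM in cKO Pg, 34.7, 35.1 and 29.7 CPM in cKO control, 482, 456 and 454 CPM in cHet Pg, and 59.5, 59.4 and 72.4 CPM in cHet control libraries. It was lower in cKO at rest by -0.94 ± 0.09 on the log2 scale, and its interaction was 0.79 ± 0.12 (adjusted p 0.0046). Il1b, the fever cytokine interleukin-1 beta, had 1411, 1506 and 1657 CPM in cKO Pg, 112, 138 and 120 CPM in cKO control, 1421, 1554 and 1479 CPM in cHet Pg, and 167, 192 and 192 CPM in cHet control libraries. The resting cKO libraries were all below the resting cHet libraries, the Pg libraries overlapped, and the interaction was 0.61 ± 0.12 (adjusted p 0.0213). This call was lost without cKO Pg library 2, cKO control library 3, cHet Pg library 3 or cHet control library 2 or 3, with a highest adjusted p of 0.087.

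Il10, an anti-inflammatory cytokine, had means of 189 ± 8.81 CPM in cKO Pg, 3.40 ± 0.513 CPM in cKO control, 175 ± 1.55 CPM in cHet Pg and 5.31 ± 1.38 CPM in cHet control libraries (SD, n = 3 each), and its interaction of 0.76 ± 0.19 was not called (adjusted p 0.0905). Tnf, the central early cytokine, was at 0.26 ± 0.34 (adjusted p 0.833). None of 22 chemokines was called, with a median of -0.14. Of these, 7 had an unadjusted p under 0.05, and DESeq2 called 4 positive and 1 negative. The monocyte attractant Ccl2 was the chemokine of smallest p, at 1.01 ± 0.22 (adjusted p 0.0834).

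Irf1, an interferon regulatory factor, and Slc40a1, the iron exporter ferroportin, were further genes lower at rest in cKO. Irf1 had 876, 830 and 781 CPM in cKO Pg, 496, 414 and 392 CPM in cKO control, 845, 942 and 1004 CPM in cHet Pg, and 757, 694 and 767 CPM in cHet control libraries (interaction 0.60 ± 0.12, adjusted p 0.0267, lost in 7 of the 12 fits without a library). Slc40a1 had 397, 369 and 335 CPM in cKO Pg, 284, 278 and 272 CPM in cKO control, 420, 432 and 414 CPM in cHet Pg, and 438, 480 and 485 CPM in cHet control libraries (interaction 0.55 ± 0.09, adjusted p 0.0115, and 0.053 without cKO control library 3). Pg raised Slc40a1 by 0.40 ± 0.07 on the log2 scale in cKO, against -0.15 ± 0.07 in cHet without a call. Slc40a1 was the only called gene of 16 on the list of NRF2 targets and iron handling, whose median was 0.15.

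Not every resting gene was induced by Pg. Snx30, a sorting nexin of endosomes, had 70.1, 70.4 and 70.6 CPM in cKO Pg, 82.2, 85.6 and 75.8 CPM in cKO control, 62.8, 70.1 and 67.9 CPM in cHet Pg, and 116, 118 and 122 CPM in cHet control libraries. It fell in both genotypes, by less in cKO, to a common level (interaction 0.62 ± 0.09, adjusted p 0.0046). Fam214a did likewise, with a log2 change of -0.81 ± 0.11 in cKO and -1.80 ± 0.11 in cHet (interaction 0.98 ± 0.15, adjusted p 0.00653). In the other direction, Ell2, a transcription elongation factor, was higher at rest in cKO. It had 467, 484 and 533 CPM in cKO Pg, 278, 244 and 247 CPM in cKO control, 515, 503 and 473 CPM in cHet Pg, and 183, 157 and 159 CPM in cHet control libraries. Its rise was the smaller one in cKO, with an interaction of -0.63 ± 0.11 (adjusted p 0.0115). Cpd, a carboxypeptidase of the Golgi, had the same pattern at -0.43 ± 0.09 (adjusted p 0.0368, lost in 9 of the 12 fits without a library).

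Because the resting level enters the fold change, the responses were also set side by side as rises in CPM, with no test. Of the 25 called genes that rose in both genotypes, 21 were positive. Their median interaction was 0.60 on the log2 scale, and the median log2 ratio of the rises in CPM was 0.48, a ratio of 1.39 for cKO over cHet with a range of 0.962 to 2.91. The rise was not larger in cKO for 3 of the 21. Dusp1 rose by 1106 CPM in cKO and 1116 CPM in cHet, a difference of -9.74 ± 59.2 CPM. Tnfaip3 differed by -39.2 ± 138 CPM and Tnfsf9 by -15.1 ± 15.8 CPM. For these 3 genes the difference in rise was within 1 standard error of 0, so the larger response in cKO holds for the fold change and was not seen in CPM.

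Other genes had a larger estimated rise in cKO on both scales, some of them by over 2 standard errors in CPM. Junb rose by 755 CPM in cKO and 520 CPM in cHet, a difference of 236 ± 32.6 CPM, and Zfp36 by 1203 CPM in cKO and 1043 CPM in cHet, a difference of 160 ± 56.6 CPM. Il1b differed by 100 ± 82.2 CPM, within 2 standard errors. Ppp1r15a rose by 74.8 CPM in cKO and 28.0 CPM in cHet, 2.67 times as much. Among the 4 negative genes that rose in both genotypes, Cd38 rose by 7.93 CPM in cKO and 29.7 CPM in cHet.

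**Figure D3:**
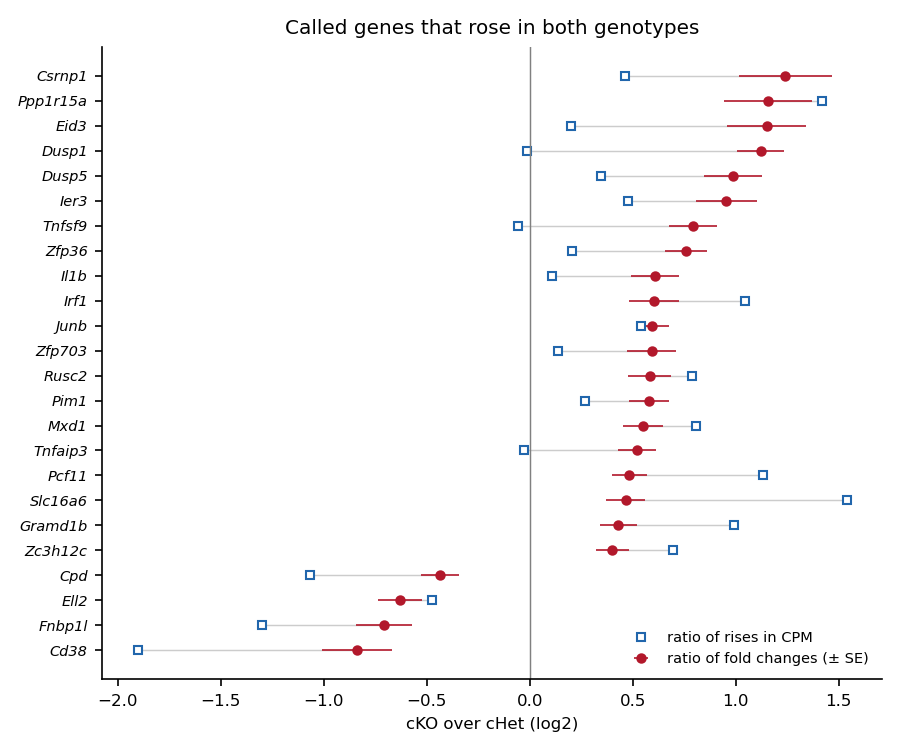
For 24 of the 25 called genes that rose in both genotypes, filled points give the interaction, the log2 ratio of the fold change in cKO over that in cHet, with its standard error, and open squares the log2 ratio of the rises in CPM. The squares of Dusp1, Tnfsf9 and Tnfaip3 lie just left of 0, and those of the other positive genes drawn lie to the right of it. The squares are drawn without an error.

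The stimulated class was led by Nos2, the inducible nitric oxide synthase. It had 1.14, 1.42 and 2.06 CPM in cKO Pg, 2.86, 2.87 and 3.33 CPM in cKO control, 13.1, 5.07 and 10.4 CPM in cHet Pg, and 3.51, 3.20 and 3.11 CPM in cHet control libraries. The genotypes overlapped at rest and were apart under Pg, where each cKO library was below each cKO control library. Pg changed Nos2 by -0.97 ± 0.34 on the log2 scale in cKO and by 1.54 ± 0.27 in cHet, both called, with an interaction of -2.50 ± 0.43 (adjusted p 0.0116). The call was lost without cKO Pg library 1, cKO Pg library 2 or cKO control library 3, with a highest adjusted p of 0.055. It was also lost in limma-voom (-2.42, adjusted p 0.0928).

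Cd38, an enzyme that consumes NAD and a marker of inflammatory macrophages, had 27.2, 30.7 and 30.9 CPM in cKO Pg, 21.1, 18.9 and 25 CPM in cKO control, 54.2, 50.5 and 45.9 CPM in cHet Pg, and 24.0, 17.2 and 20.2 CPM in cHet control libraries. Resting levels overlapped, and under Pg no cKO library reached the cHet range (interaction -0.84 ± 0.17, adjusted p 0.0285, lost in 7 of the 12 fits without a library). Acod1, which makes itaconate, had 1368, 1278 and 1484 CPM in cKO Pg, 1476, 1460 and 1621 CPM in cKO control, 1667, 1559 and 1664 CPM in cHet Pg, and 1139, 1248 and 1251 CPM in cHet control libraries. It was higher in cKO at rest, by 0.32 ± 0.07 on the log2 scale (adjusted p 0.00997), and -0.24 ± 0.07 under Pg without a call, and its interaction was -0.57 ± 0.10 (adjusted p 0.0115). These 3 were the called members among 19 genes of macrophage activation, all negative, where 0.261% of all tested genes were. The list's median was -0.39 and 5 of its members were above 0 (26.3%). Arg1, the arginase that shares its substrate with Nos2, was at -0.45 ± 0.48, and the formyl peptide receptor gene Fpr1 at -0.61 ± 0.18 (adjusted p 0.141).

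Src, the kinase that acts downstream of integrins, was also a stimulated gene. It had 29.0, 32.4 and 33.6 CPM in cKO Pg, 30.8, 25.4 and 26.1 CPM in cKO control, 47.9, 48.1 and 52.0 CPM in cHet Pg, and 30.4, 25.3 and 27.0 CPM in cHet control libraries. It rose with Pg by 0.84 ± 0.09 in cHet, against 0.21 ± 0.09 in cKO without a call (interaction -0.63 ± 0.13, adjusted p 0.0333, lost in 8 of the 12 fits without a library). Col18a1, a basement membrane collagen gene that overlaps the annotated Slc19a1, had 17.2, 19.3 and 19.7 CPM in cKO Pg, 19.6, 24.5 and 29.0 CPM in cKO control, 37.2, 29.5 and 33.0 CPM in cHet Pg, and 21.4, 21.8 and 20.2 CPM in cHet control libraries (interaction -1.03 ± 0.17, adjusted p 0.0107). None of 26 integrin subunits and alpha9beta1 ligands was called by edgeR or DESeq2 among the 13800 genes, with a median of -0.07 and 4 members at an unadjusted p under 0.05. Without a low-count filter edgeR called 1 and with the Itgax covariate 2, all negative. Tenascin C (Tnc), a ligand of the receptor, was the one of smallest p, at -2.77 ± 0.83 (adjusted p 0.153), and its cKO libraries held 0 to 0.893 CPM.

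Lars2, the mitochondrial leucyl-tRNA synthetase, and Gm23935, annotated as a short miRNA gene inside Zc3h7a, were further stimulated genes past a log2 size of 1. Lars2 had means of 39.8 ± 6.33 CPM in cKO Pg, 44.9 ± 5.02 CPM in cKO control, 82.1 ± 15.6 CPM in cHet Pg and 40.0 ± 2.25 CPM in cHet control libraries (SD, n = 3 each), with an interaction of -1.21 ± 0.20 (adjusted p 0.0193). It lost its call without cKO Pg library 2, cKO control library 3, cHet Pg library 2 or cHet control library 2 or 3, with a highest adjusted p of 0.0693. Gm23935 had 142, 157 and 181 CPM in cKO Pg, 183, 163 and 223 CPM in cKO control, 450, 357 and 302 CPM in cHet Pg, and 146, 157 and 147 CPM in cHet control libraries. Its cHet Pg libraries were above all others, with an interaction of -1.55 ± 0.22 (adjusted p 0.0115). Its reads and those of its host cannot be told apart. By library Lars2 had 95.8, 85.3 and 65.1 CPM in cHet Pg and 32.9, 40.8 and 45.5 CPM in cKO Pg. It had 42.5, 41.6 and 50.7 CPM in cKO control and 40.4, 37.6 and 42.1 CPM in cHet control libraries. Lars2 and Gm23935 thus ran in the same order of libraries within each group but cHet control. Whether they are 2 separate responses was not tested. The 1 positive gene of the class was Mid1, a ubiquitin ligase gene on chromosome X, with means of 51.2 ± 0.203 CPM in cKO Pg, 20.3 ± 6.38 CPM in cKO control, 1.52 ± 0.469 CPM in cHet Pg and 2.28 ± 0.432 CPM in cHet control libraries (SD, n = 3 each). It overlaps other annotated genes, and its interaction of 1.91 ± 0.37 (adjusted p 0.0333) was lost in 9 of the 12 fits without a library.

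**Figure D4:**
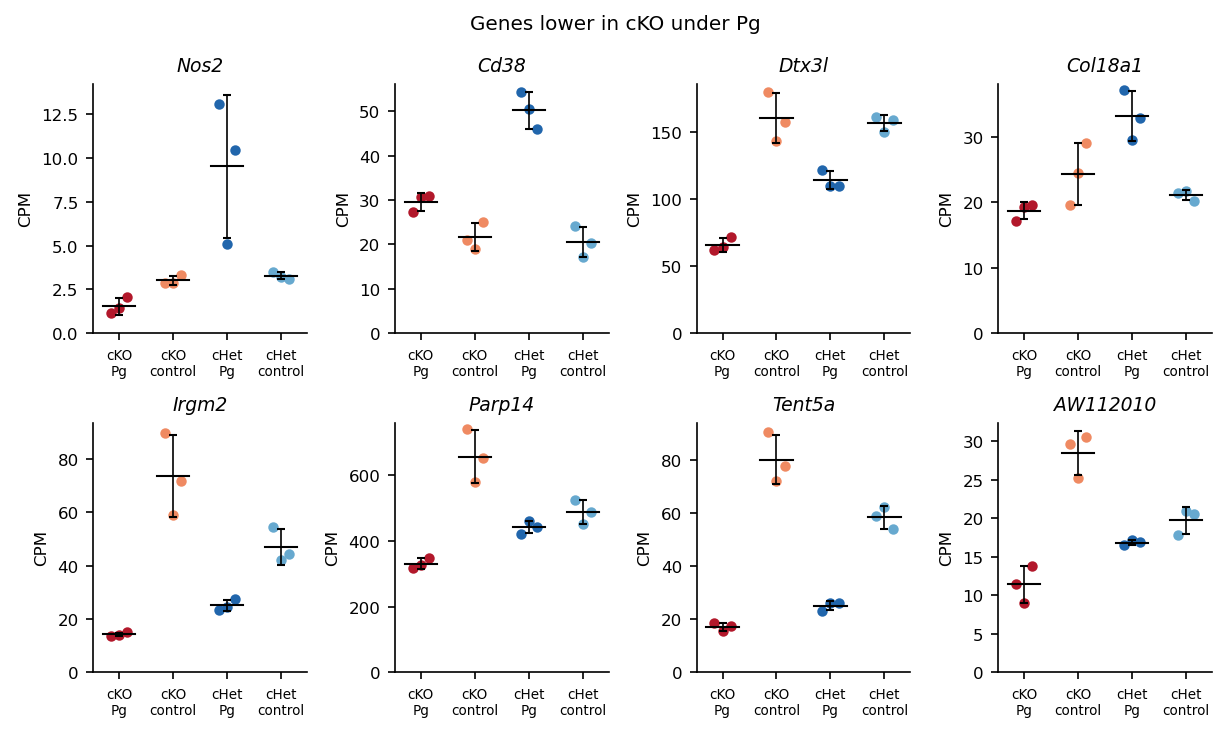
CPM of 8 genes that were lower under Pg in cKO, in each of the 12 libraries, with group means and SD as lines (n = 3 each); the y axes are linear and start at 0. Nos2, Cd38, Dtx3l and Col18a1 had overlapping genotypes at rest, while Irgm2, Parp14, Tent5a and AW112010 were higher at rest and lower under Pg in cKO.

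The interferon list held interferon-stimulated genes, interferon regulatory factors and the interferon gene Ifnb1. Of its 37 members, 33 had an interaction below 0 and 4 above (10.8%), with a median of -0.52. By level, the median genotype difference was -0.37 under Pg and 0.16 at rest, and 3 members were called lower under Pg in cKO, 2 lower at rest and 1 higher at rest, where 1.2%, 3.02% and 2.13% of all tested genes were. Irgm2 alone was called negative and Irf1 alone positive, and 35 were not called. When any 1 library was left out, 33 to 35 members stayed below 0, with medians of -0.88 to -0.35. DESeq2 called 9 negative members and 1 positive, and the fit with the Itgax covariate 12 negative and 1 positive. The list's summed level was 2925 to 3109 CPM in cKO Pg, 3531 to 5195 CPM in cKO control, 3206 to 3955 CPM in cHet Pg and 3659 to 4902 CPM in cHet control libraries. In both control groups the highest sum belonged to library 1, the library of high Itgax, and with Itgax as a covariate the median interaction of the list was -0.41.

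Irgm2, a GTPase that guards vacuoles of intracellular microbes, had 13.7, 13.9 and 14.9 CPM in cKO Pg, 89.8, 59.1 and 71.7 CPM in cKO control, 23.4, 24.4 and 27.5 CPM in cHet Pg, and 54.6, 42.2 and 44.3 CPM in cHet control libraries. It was lower in every cKO library under Pg and higher in every cKO library at rest. The log2 change with Pg was -2.38 ± 0.15 in cKO and -0.91 ± 0.14 in cHet, an interaction of -1.47 ± 0.20 (adjusted p 0.00625). It overlaps the annotated Igtp, a relative in the same gene cluster, and reads of the 2 may be shared. Its RefSeq window (chr11:58214727-58214976, plus strand, GRCm38.p6) lies inside the deposited gene span, 15359 bases from its 5′ end, and is shown for the element of interferon regulatory factors (GAAA, 2 free bases and GAAA, both strands searched), in capitals, at -64 to -55.
Irgm2: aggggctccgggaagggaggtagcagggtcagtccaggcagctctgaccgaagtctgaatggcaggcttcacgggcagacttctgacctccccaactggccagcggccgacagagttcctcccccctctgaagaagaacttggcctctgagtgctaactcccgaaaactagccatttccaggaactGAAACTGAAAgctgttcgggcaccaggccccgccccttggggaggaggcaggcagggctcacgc
That element was in 1 of the 29 negative windows (3.45%), 2.33% of the positive windows and 2.88% of all windows.

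Further members of the interferon list had large values and wide errors. The antiviral GTPase gene Mx1 had 37.0, 31.4 and 37.1 CPM in cKO Pg, 360, 178 and 211 CPM in cKO control, 65.7, 99.5 and 109 CPM in cHet Pg, and 311, 164 and 196 CPM in cHet control libraries. The genotypes were apart under Pg and overlapped at rest, where library 1 was the highest in both, and the interaction was -1.53 ± 0.48 (adjusted p 0.225). Stat2, the transducer of type I interferon, was at -0.88 ± 0.19 (adjusted p 0.066), Gbp5, a guanylate-binding protein, at -0.52 ± 0.12 (adjusted p 0.066) and Isg15, a ubiquitin-like protein, at -0.98 ± 0.26 (adjusted p 0.124).

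Further negative genes were in none of the lists. Parp14, Dtx3l and Parp9, of ADP-ribosylation and its ubiquitin ligase partner, lie together on chromosome 16. Between Parp14 and Dtx3l lie 54967 bp. Dtx3l and Parp9 overlap at their ends on opposite strands, so that reads there cannot be separated without a strand setting. Parp14 had 317, 327 and 349 CPM in cKO Pg, 740, 580 and 653 CPM in cKO control, 423, 460 and 443 CPM in cHet Pg, and 525, 451 and 488 CPM in cHet control libraries. It was lower in cKO under Pg (adjusted p 0.00932) and higher at rest (adjusted p 0.00479), in every library (interaction -0.85 ± 0.12, adjusted p 0.00338). Dtx3l had 62.1, 64.2 and 71.8 CPM in cKO Pg, 181, 144 and 158 CPM in cKO control, 122, 110 and 110 CPM in cHet Pg, and 161, 150 and 159 CPM in cHet control libraries. Here the resting levels overlapped, the stimulated level carried the interaction of -0.82 ± 0.12 (adjusted p 0.00367), and Parp9 was at -0.59 ± 0.13 (adjusted p 0.0422, lost in 9 of the 12 fits without a library).

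Trim21, a cytosolic antibody receptor, was at -0.76 ± 0.14 (adjusted p 0.0116). Rnf31, the catalytic subunit of the linear ubiquitin chain complex, was at -0.73 ± 0.12 (adjusted p 0.0095) and overlaps the annotated Irf9. AW112010, a long non-coding RNA of stimulated macrophages, was at -1.09 ± 0.18 (adjusted p 0.0095). Tent5a, a poly(A) polymerase, was at -1.01 ± 0.14 (adjusted p 0.00338). It had 18.4, 15.5 and 17.4 CPM in cKO Pg, 90.3, 72.2 and 77.7 CPM in cKO control, 23.1, 26.2 and 26.0 CPM in cHet Pg, and 59.0, 62.3 and 53.8 CPM in cHet control libraries. Trim21, AW112010 and Tent5a were higher at rest in cKO by the test, and AW112010 and Tent5a were also lower under Pg. Myo10, a myosin of filopodia, crossed in the same way (interaction -0.85 ± 0.13, adjusted p 0.00625), with log2 differences of -0.47 ± 0.09 under Pg and 0.38 ± 0.09 at rest. All of these but Parp9 kept their calls without any 1 library.

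**Figure D5:**
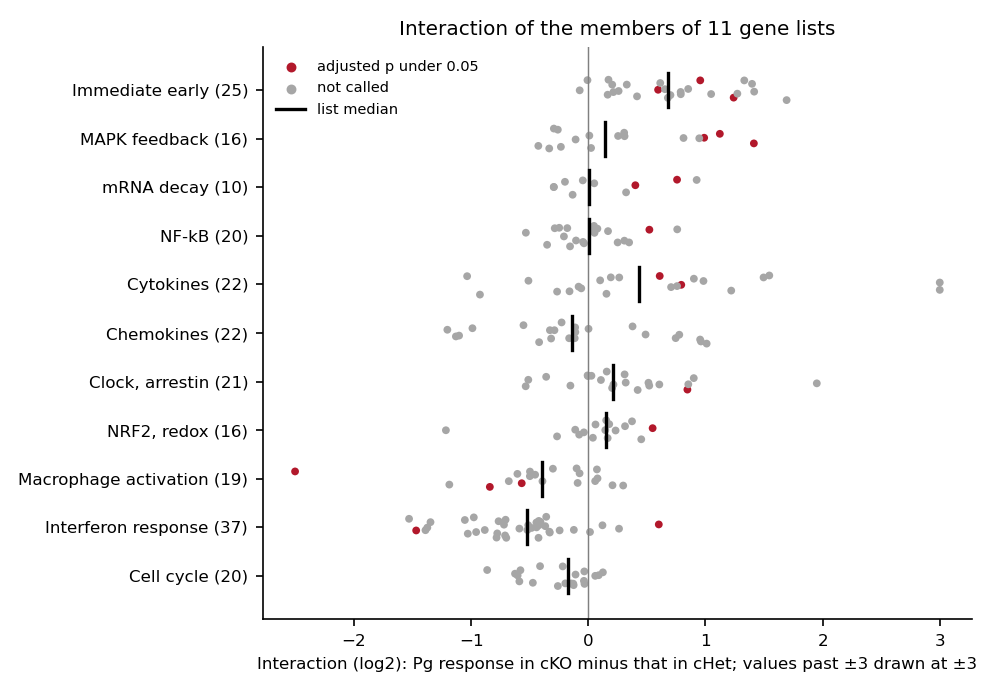
Interaction on the log2 scale of each tested member of 11 gene lists, with the number of members in brackets, called members in red and the list median as a bar; values past 3 in size are drawn at 3. Immediate early genes lie mostly to the right of 0 with a median of 0.68, and interferon response genes mostly to the left with a median of -0.52.

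Among 21 circadian clock, glucocorticoid-responsive and arrestin-domain genes 1 was called, positive, with 15 above 0 (71.4%) and a median of 0.21. Dbp, an output factor of the circadian clock, had 16.2, 17.1 and 12.1 CPM in cKO Pg, 22.3, 24.8 and 22.7 CPM in cKO control, 10.7, 12.8 and 13.7 CPM in cHet Pg, and 33.9, 36.2 and 32.9 CPM in cHet control libraries. It overlaps the annotated Sphk2, fell in both genotypes, and had an interaction of 0.85 ± 0.17 (adjusted p 0.0267), lost in 8 of the 12 fits without a library. Nr1d1, the clock repressor REV-ERB alpha, was at 1.95 ± 0.42 without a call (adjusted p 0.0628). Klhl21, an adaptor of ubiquitin ligases, changed with Pg in cHet by -0.84 ± 0.10, against 0.08 ± 0.10 in cKO (interaction 0.93 ± 0.14, adjusted p 0.0046).

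The lists that follow held no gene called by edgeR among the 13800 genes with no covariate. Counts are given of members at an unadjusted p under 0.05, which 12.6% of all tested genes had. There were 5 of 25 Toll-like receptor and adaptor genes, of which Irak4 had the smallest p (0.34 ± 0.11, adjusted p 0.173). There were 2 of 15 SOCS and interleukin-10 signalling genes (Socs1 at -0.91 ± 0.29, adjusted p 0.194), 3 of 19 growth factor, prostanoid and matrix genes, and 1 of 20 cell cycle genes (Ccnd2 at -0.86 ± 0.28, adjusted p 0.187). Among 17 genes of cholesterol synthesis and LXR targets there were none (Insig1 at 0.45 ± 0.26, adjusted p 0.537), and none among 9 genes of MHC class II (H2-DMb2 at -0.53 ± 0.42, adjusted p 0.671). The actin and serum response list had 2 of 19 (Srf at 0.29 ± 0.10, adjusted p 0.217). The glycolysis list had 2 of 18, led by Gapdh at 2.76 ± 0.91 (adjusted p 0.244), which has many near-identical pseudogene copies and is uncertain. DESeq2 called 1 gene of the growth factor list, positive, 1 of the SOCS list, negative, and none of the other 6. With the Itgax covariate edgeR called 2 Toll-like receptor and adaptor genes and 2 of the growth factor list, all positive, and 3 cholesterol and LXR genes, 1 positive and 2 negative. Without a low-count filter it called 3 of the growth factor list, positive, and 1 SOCS and 1 cell cycle gene, negative.

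Of the 99 called genes, 90 were protein-coding. The largest positive values included pseudogenes, whose reads are uncertain because near-identical copies exist: Gm5805 at 1.80 ± 0.28, Gm11249 at 1.67 ± 0.27, Gm1821 at 1.34 ± 0.27 and Rps2-ps10 at 1.15 ± 0.20. In all, 6 called genes were pseudogenes, and 18 overlapped another gene that held over 10% of their counts. Among these is Eid3 (1.15 ± 0.19, adjusted p 0.0095, and 0.0507 without cKO control library 3), which lies inside the annotated Txnrd1.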

How the data were processed

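The measurement was poly-A RNA sequencing of 12 libraries, and the deposited values are raw read counts per gene, which the authors made with fastp, HISAT2 2.0.5, featureCounts 1.5.0-p3 and the mm10 genome, per the submitters' processing notes. Which annotation release was counted, whether by strand, and how reads with several hits were handled is not given in the sources used. Totals per library were 14527674 to 16793803 counts. Genes were kept by edgeR's filterByExpr (13800 of 54532) and scaled by TMM, and all 4 groups entered 1 fit of edgeR 4.0.16 in R 4.3.3 (robust quasi-likelihood F test, Benjamini-Hochberg adjustment over 13800 genes, threshold 0.05). CPM were computed from TMM-scaled totals, and standard errors of log2 values from the F statistic. Scripts were tested on simulated data. Of simulated interactions with a log2 size of 0.5, 1 and 2, 10.6%, 61.2% and 88.1% were called. There were also 12 calls among unchanged genes (0.0882%). A gene without a call can therefore still differ, above all by a small amount. Named genes were the 12 of most positive and the 12 of most negative interaction among calls whose mean log2 CPM reached 1. From each of 26 lists (7 of them cell type markers) up to 3 called members of smallest p were added. Where a list had no call, its 1 member of smallest p was taken. The 4 of smallest p in each class were also named, beside Itga9 and Lyz2. Further genes (Dusp2, Dusp6, Fosb, Nr4a1, Egr1, Egr3, Fosl2, Klf2, Nfkbia, Nfkb1, Tnf, Arg1, Fpr1, Mx1, Isg15, Gbp5, Nr1d1 and Parp9 among them) were picked after their values were seen. The members and lists were chosen with earlier results of these data known. Alternatives were other scalings and filters, DESeq2 1.42.0, limma-voom 3.58.1, a fit that was not robust, a replicate block, each library left out, a minimum fold, CPM differences and, added after seeing the data, Itgax as a covariate. Values of 2 genes are not reported here.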

Additional observations from a re-analysis of the deposited data

Results flagged for a closer look

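The results below stand here because the test of the difference between the cKO and the cHet response passed, as edgeR's adjusted p under 0.05, and no explanation was weighed. Values are interactions on the log2 scale, cKO response minus cHet response.

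Among the genes with the largest positive values, Mid1 was at 1.91, Dusp8 at 1.41, Csrnp1 at 1.24, Alms1 at 1.19, Ppp1r15a at 1.16, Eid3 at 1.15 and Dusp1 at 1.12. Pseudogenes and unnamed transcripts were Gm5805 at 1.80, Gm11249 at 1.67, Gm17024 at 1.38, Gm1821 at 1.34 and Rps2-ps10 at 1.15. Of the 12 fits without a library, Gm17024 was called in 2 and Gm1821 in 5. Further inhibitors and immediate early genes were Dusp5 at 0.99, Ier3 at 0.96, Zfp36 at 0.76, Junb at 0.60, Tnfaip3 at 0.52 and Zc3h12c at 0.40. Cytokines and other positive genes were Klhl21 at 0.93, Dbp at 0.85, Tnfsf9 at 0.79, Snx30 at 0.62, Il1b at 0.61, Irf1 at 0.60 and Slc40a1 at 0.55.

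Among the negative genes, Nos2 was at -2.50, Cd38 at -0.84 and Acod1 at -0.57, all from the macrophage activation list. The only negative call of the interferon list was Irgm2 at -1.47. The others were AW112010 at -1.09, Parp14 at -0.85, Dtx3l at -0.82, Gm23935 at -1.55, Lars2 at -1.21, Col18a1 at -1.03, Tent5a at -1.01, Myo10 at -0.85 and the pseudogene Gm14303 at -0.78, which was called in 4 of the 12 fits without a library.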

How the results depend on the processing

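On the log2 scale all 99 calls kept their sign in every fit run, those without a library included. Without a low-count filter 389 of 27404 genes were called, 210 positive and 179 negative, with 82 carried by the resting and 36 by the stimulated level, and the response larger in cKO in 155 and in cHet in 136. DESeq2 called 259 genes, 146 positive and 113 negative, with 60 and 17 by level, 113 larger in cKO and 82 in cHet. With the Itgax covariate, chosen after seeing the data, 715 were called, 380 positive and 335 negative, with 142 and 59 by level, 254 larger in cKO and 277 in cHet. Each of these 3 fits held all 99 genes. Requiring a log2 size of 1 left 19, of which 12 were positive and 7 negative. Median-of-ratios, upper-quartile and library size scaling gave 101, 99 and 98 calls, the stricter filter 104, limma-voom 91 and the fit that was not robust 95. Leaving out 1 library gave 25 to 210 calls, 13 to 119 positive and 12 to 91 negative, with 7 to 33 by the resting and 1 to 13 by the stimulated level, 13 to 81 larger in cKO and 8 to 79 in cHet. As differences of rises in CPM, Dusp1 (-9.74), Tnfaip3 (-39.2) and Tnfsf9 (-15.1) were below 0, each within 1 standard error of it. Why the other counts moved was not tested.

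The replicate numbers were not treated as a pairing. Same-numbered libraries of different groups had correlations of their deviations of -0.554 to 0.667, over 0.1 in 8 of 18 pairs. Libraries of different groups and different numbers had -0.492 to 0.603, over 0.1 in 18 of 36 pairs. With the replicate number as a block 70 genes were called, 68 of them among the 99, and the stimulated level carried 5. Standard errors were 0.0787 to 0.432 among the called genes, and 0.44 for Egr1 and 0.48 for Mx1, which were not called.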

Other observations

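Several called genes lie outside the lists and the gene groups described above. Pim1, a serine kinase induced by cytokines, had 760, 739 and 685 CPM in cKO Pg, 180, 199 and 180 CPM in cKO control, 689, 722 and 780 CPM in cHet Pg, and 262, 284 and 292 CPM in cHet control libraries. The genotypes overlapped under Pg and were apart at rest, with an interaction of 0.58 ± 0.10, called in 11 of the 12 fits without a library. Flcn, folliculin, a regulator of mTORC1 and TFE3 at the lysosome, had an interaction of 0.53 ± 0.08 (edgeR adjusted p 0.0056), which was called in all 12 fits without a library. Slc16a6, a monocarboxylate transporter gene, had the largest ratio of rises in CPM among the called genes that rose in both genotypes, 2.91, with an interaction of 0.47 that was called in 4 of the 12 fits without a library. These genes were picked after their values were seen.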
